A study of Mus musculus with 2 samples.

Results

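The translation initiation factors are the proteins that bring the initiator tRNA, the mRNA and the ribosome together, and their genes were taken as all genes whose annotated symbol begins with Eif, without the eIF2 kinases (Eif2ak). Of 19938 named genes, 45 met this rule, and 44 of them gave a signal above the detection floor on at least 1 array. They were compared between 2 cultures of C2C12, a line of mouse myoblasts that form myotubes once serum is reduced. The cells had spent 7 days in medium with 2% horse serum and received virus for 48 h at 30 infectious particles per cell, either Ad-caERα, an adenovirus for a constitutively active estrogen receptor α, or Ad-DsRed, the same kind of vector for the red fluorescent protein DsRed. Both groups are infected, differentiated C2C12 cells, each with 1 array, so no test between them was possible and the spread between cultures is unknown. The labels do not give the species or the altered part of the receptor.

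Initiation begins when eIF2, loaded with GTP, carries the initiator methionyl-tRNA to the small ribosomal subunit, where eIF1, eIF1A, eIF3 and eIF5 gather. eIF4F (the cap-binding eIF4E, the helicase eIF4A and the scaffold eIF4G) recruits the mRNA, and eIF5B then joins the large subunit. eIF2B reloads eIF2 with GTP and is inhibited by phosphorylated eIF2. In skeletal muscle, growth signals act on initiation through mTOR, which phosphorylates the 4E-binding proteins and so frees eIF4E.

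The genes are spread over many chromosomes, although some share 1, as Eif2b4 and Eif2b1 share chromosome 5. The promoters of the complex with the highest median difference are shown first so that its members can be compared. These are RefSeq windows of 300 bases on GRCm38.p6, running from 250 bases before to 50 after the annotated start. They belong to 4 of the 5 eIF2B genes and, for contrast, to Eif5b, the gene with the lowest difference. Eif2b4 lies at chr5:31193090-31193389, minus strand. Eif2b1 lies at chr5:124579082-124579381, minus strand. Eif2b2 lies at chr12:85219231-85219530, plus strand. The window of Eif2b5 is chr16:20498567-20498866, plus strand. That of Eif5b is chr1:37997760-37998059, plus strand. Capitals mark the estrogen receptor core site GGTCA and the ETS site CCGGAAG, each on either strand.
Eif2b4: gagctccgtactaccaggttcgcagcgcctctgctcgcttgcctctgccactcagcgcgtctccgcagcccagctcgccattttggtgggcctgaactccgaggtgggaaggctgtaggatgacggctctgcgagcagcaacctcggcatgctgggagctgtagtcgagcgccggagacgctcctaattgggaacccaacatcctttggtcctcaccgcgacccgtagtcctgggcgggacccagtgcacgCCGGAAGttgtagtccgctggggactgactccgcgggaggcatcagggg
Eif2b1: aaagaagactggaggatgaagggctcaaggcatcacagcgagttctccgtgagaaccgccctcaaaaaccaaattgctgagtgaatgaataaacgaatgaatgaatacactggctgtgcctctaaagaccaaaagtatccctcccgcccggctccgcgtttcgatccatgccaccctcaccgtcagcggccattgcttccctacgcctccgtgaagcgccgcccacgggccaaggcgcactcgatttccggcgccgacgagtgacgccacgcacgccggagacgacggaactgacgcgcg
Eif2b2: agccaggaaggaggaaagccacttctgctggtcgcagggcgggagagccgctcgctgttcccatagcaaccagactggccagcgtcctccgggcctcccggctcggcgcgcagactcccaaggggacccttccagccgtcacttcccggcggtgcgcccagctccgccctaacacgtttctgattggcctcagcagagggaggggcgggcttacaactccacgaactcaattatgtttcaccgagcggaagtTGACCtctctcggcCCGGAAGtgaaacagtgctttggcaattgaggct
Eif2b5: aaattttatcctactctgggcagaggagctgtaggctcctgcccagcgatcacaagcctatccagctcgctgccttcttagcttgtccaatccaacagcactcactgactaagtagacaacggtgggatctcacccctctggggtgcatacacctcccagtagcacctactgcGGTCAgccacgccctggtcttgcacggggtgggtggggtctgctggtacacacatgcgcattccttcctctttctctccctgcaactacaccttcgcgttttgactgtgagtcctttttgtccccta
Eif5b: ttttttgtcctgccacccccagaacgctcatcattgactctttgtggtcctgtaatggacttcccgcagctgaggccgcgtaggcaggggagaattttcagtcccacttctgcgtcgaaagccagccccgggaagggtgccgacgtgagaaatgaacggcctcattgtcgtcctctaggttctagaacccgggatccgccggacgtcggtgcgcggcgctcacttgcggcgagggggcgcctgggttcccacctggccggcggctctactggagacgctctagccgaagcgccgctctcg

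The letters of a core site occurred in the windows of Eif2b2 and Eif2b5 and in none of the other 3 shown. Eif2b2 and Eif2b4 held an ETS site. Among the 34 initiation factor genes above the floor that had a window, 11 held a core site (32.4%), against 42.3% of the 10728 measured genes with a window. The full palindromic element, GGTCANNNTGACC, was in 0 of the 34 and in 0.028% of those genes. An ETS site was in 14 of 34 members (41.2%), against 18.2% of measured genes, and an E-box, CACGTG, in 9 of 34 (26.5%), against 11.3%. The share of genes with an ETS site or an E-box was thus larger among members, and that with a core site somewhat smaller. Member windows had a median of 62.7% G and C, against 60.3% for windows of measured genes. The part of base content in these shares was not tested. An E-box was in 0 of the 4 eIF2B genes and 3 of the 8 eIF3 genes that had a window. These counts are too small to compare, and the remaining genes of both complexes had no window. Other motifs searched on both strands were the GC box GGGCGG (26 of 34 members, 76.5%, against 66.4%), CCAAT (13 of 34, 38.2%, against 42.0%) and the cAMP response element TGACGTCA (0 of 34, against 3.45%). The full element contains the core site, and 5 members have more than 1 window and so more chances of a match. All measured genes were counted in the same way, by a match in any of their windows. These matches describe letters in a window, and no test of binding or of enrichment was made.

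Initiation factor transcripts differed little between the arrays. Differences are Ad-caERα minus Ad-DsRed on the log2 scale, from signals that the authors normalized by RMA, and the detection floor was a log2 signal of 5.11. The 44 members ran from -0.22 (Eif5b) to 0.37 (Eif2b4), with 26 above 0 and 18 below. Their median was 0.037, beside 0.0017 over all 13556 measured genes. Above 0 lay 59.1% of members and 50.2% of all measured genes. With a higher floor the medians were closer, 0.034 over 42 members and 0.024 over all measured genes.

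The size rule for calling a gene was a log2 difference of at least 0.322, that is, 25% higher or 20% lower in Ad-caERα. By this rule 2 members were higher and 0 were lower. The same rule took 7.34% of all measured genes upwards and 6.76% downwards, and 2 of 44 members (4.55%) is near that background. At 2-fold 0 members differed, and 0.686% of measured genes did. The members' differences had an SD of 0.15 over genes, against 0.27 over all measured genes and 0.11 over 53 cytosolic ribosomal protein genes. All measured genes ran from -2.61 to 4.48, and these spreads were not matched for signal level. Between probe sets annotated to the same gene, read on the same arrays, the Ad-caERα minus Ad-DsRed difference had an SD of 0.13, from 770 genes. Within that distance of 0 lay 24 of 44 members (54.5%) and 47.4% of measured genes. This yardstick covers probe sets only, which need not all read the same transcript, and the spread between cultures may be larger.

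**Figure D1:**
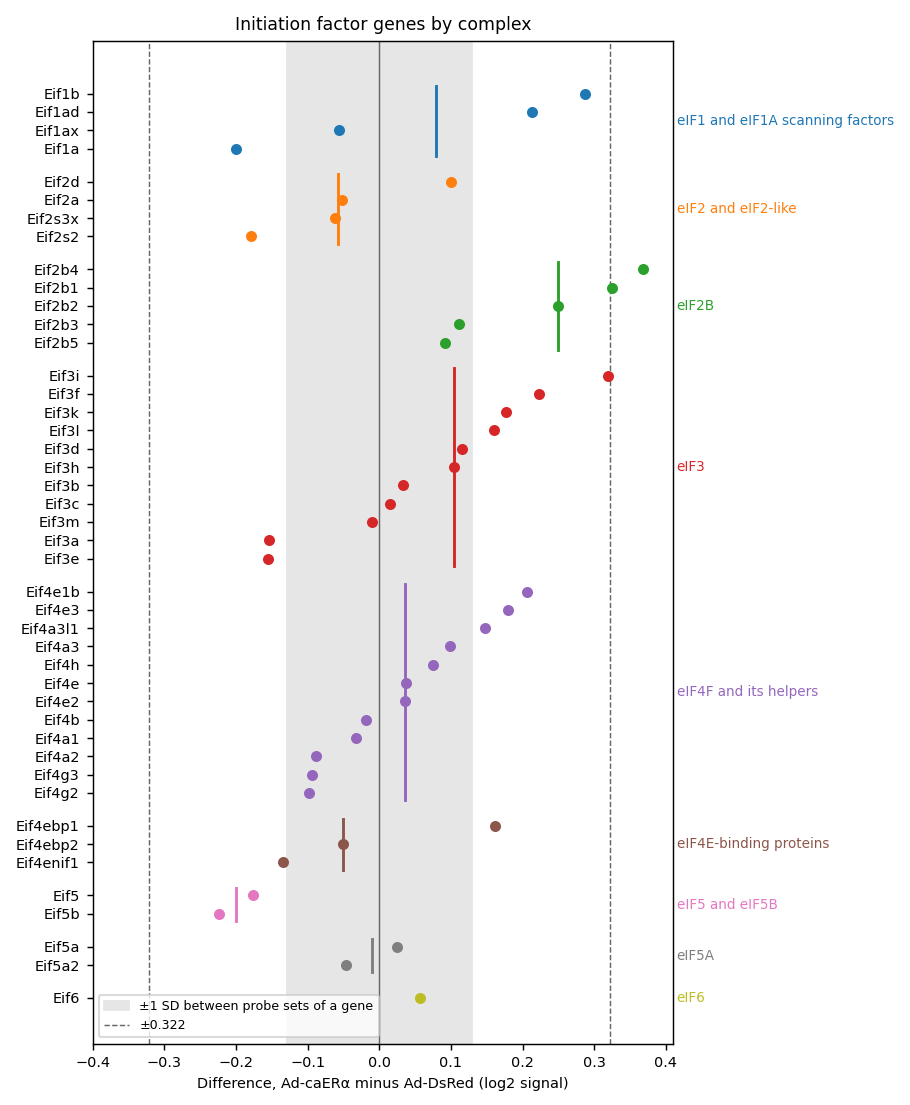
Difference of each of the 44 measured initiation factor genes, Ad-caERα minus Ad-DsRed (log2 signal, x axis), by complex. Points are genes, coloured bars are complex medians, the grey band is ±1 SD between probe sets of a gene (0.13) and dashed lines mark the size rule of ±0.322; all 5 eIF2B genes lie right of 0 and both eIF5 and eIF5B left of it.

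eIF2B, the exchange factor that reloads eIF2, had the highest median of the complexes with at least 2 members, 0.25, and all 5 of its subunit genes were above 0. Eif2b4, which encodes the δ subunit, stood at a log2 signal of 7.96 in Ad-caERα and 7.59 in Ad-DsRed, which is 1.29-fold higher. Eif2b1, the α subunit, was at 8.71 in Ad-caERα and 8.39 in Ad-DsRed (1.253-fold higher). These are the only members past the size rule, and they ranked 736th and 974th from the top of the 13556 measured genes.

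Eif2b2, the β subunit, was at 9.24 in Ad-caERα and 8.99 in Ad-DsRed (0.25). The α, β and δ subunits form the regulatory part of eIF2B, which senses phosphorylated eIF2. The catalytic part consists of γ and ε, and these genes differed less. Eif2b3, for γ, was at 9.58 in Ad-caERα and 9.47 in Ad-DsRed (0.11), and Eif2b5, for ε, at 8.46 in Ad-caERα and 8.37 in Ad-DsRed (0.092). Both catalytic subunit genes lay within 1 SD between probe sets, and the 3 regulatory ones lay outside it; this split was made after the values were seen. Each of the 5 genes was read by 1 probe set, so no second probe set checks any of them.

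Starts of other genes close to those of the members, on the opposite strand and within 1000 bases upstream, were looked up in the same RefSeq table. Eif2b1 starts 17 bases from Gtf2h3, which encodes a subunit of the general transcription factor TFIIH. Gtf2h3 was at 7.89 in Ad-caERα and 7.60 in Ad-DsRed, a difference of 0.29 beside 0.33 for Eif2b1. Eif2b4 starts 165 bases from Snx17, a sorting nexin of endosomes, which was at 9.69 in Ad-caERα and 9.47 in Ad-DsRed (0.21). Members and neighbours differed in the same direction in these pairs and in the other 2 measured ones, Eif1ad with Banf1 (0.024) and Eif5b with Txndc9 (-0.044). Over all 625 such pairs of measured genes, 55.5% had the same sign, and 4 pairs are too few to set against that.

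For eIF2 itself and the eIF2-like factors the median was -0.057 over 4 measured genes. Eif2s3x, the X-linked γ subunit that binds GTP and the initiator tRNA, was at 11.66 in Ad-caERα and 11.72 in Ad-DsRed. The β subunit gene Eif2s2 was at 9.77 in Ad-caERα against 9.95 in Ad-DsRed (-0.18), but its second probe set gave 9.47 in Ad-caERα and 9.49 in Ad-DsRed (-0.019). The lower value of Eif2s2 therefore rests on the choice of probe set. Eif2s3y, the Y-linked counterpart of Eif2s3x, was below the floor on both arrays, at 2.99 in Ad-caERα and 2.89 in Ad-DsRed, and is the 1 member not measured. Eif2d and Eif2a encode alternative factors that can bring tRNA to the ribosome without eIF2. Eif2d was at 7.99 in Ad-caERα and 7.89 in Ad-DsRed (0.0999), and Eif2a differed by -0.053. The α subunit gene Eif2s1, the site of the inhibitory phosphorylation, was not analysed here.

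In eIF3, the scaffold on the small subunit, 8 of 11 measured genes were above 0, with a median of 0.10. Eif3i, a WD-repeat subunit, was highest at 9.64 in Ad-caERα against 9.32 in Ad-DsRed. Its difference of 0.319 falls just short of the size rule. Eif3f, which in muscle is degraded through the atrophy ubiquitin ligase Fbxo32, was at 11.64 in Ad-caERα and 11.42 in Ad-DsRed (0.22). Eif3h, its partner with the same MPN-type domain, was at 12.25 in Ad-caERα and 12.15 in Ad-DsRed (0.10).

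The PCI-type subunits of eIF3 differed in both directions. Eif3k (0.18) and Eif3l (0.16), which sit at the edge of the complex, were above 0, and Eif3c (0.015) was close to it. Eif3a, the largest scaffold subunit, was at 10.69 in Ad-caERα and 10.85 in Ad-DsRed (-0.15), and Eif3e at 10.60 in Ad-caERα and 10.75 in Ad-DsRed (-0.15). Eif3m, also of this type, differed by -0.0099 in the probe set used and by 0.16 in its second one. The remaining subunits Eif3d, which can bind the cap of some mRNAs, and Eif3b, a core subunit, differed by 0.11 and 0.033. Probe sets shared by Eif3j1 and Eif3j2, and so assigned to neither, gave -0.16 and -0.19. Eif3g was not analysed here.

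**Figure D2:**
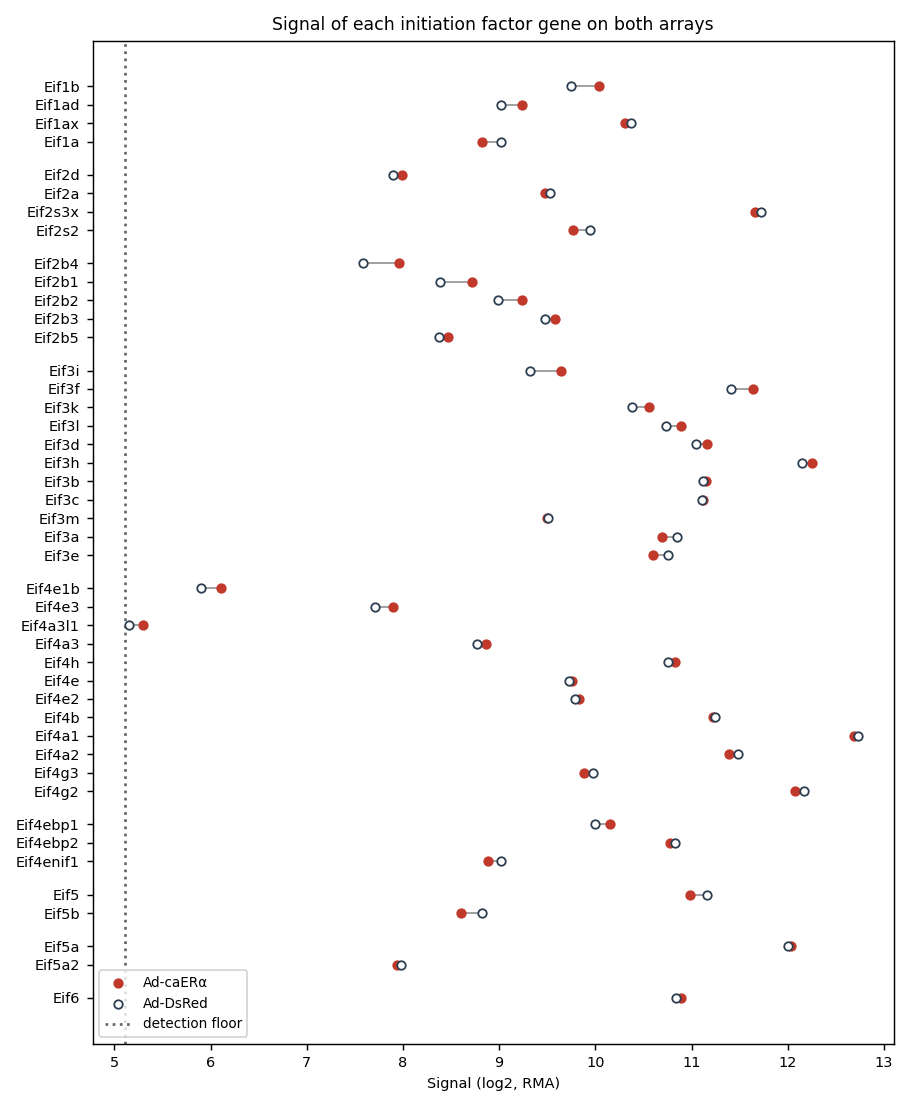
Signal of each measured initiation factor gene (RMA log2 signal, x axis) on the Ad-caERα array (filled points) and the Ad-DsRed array (open points), in the order of the complexes; the dotted line is the detection floor of 5.11. The paired points lie close together for every gene, at most 0.37 apart; positions of different genes cannot be compared, since probes differ in brightness.

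The cap-binding factors differed little. eIF4F and its helpers had a median of 0.037 over 12 genes, from -0.098 to 0.21, and 0 of them met the size rule in either direction. The 7 genes above 0 include Eif4a3, which is not a helicase of the cap, and its close copy Eif4a3l1. The 5 below 0 were Eif4a1, Eif4a2, Eif4b, Eif4g2 and Eif4g3. Eif4e, the cap-binding protein, was at 9.76 in Ad-caERα and 9.72 in Ad-DsRed, whereas its other 2 probe sets gave -0.27 and 0.11. The differences given by the 3 probe sets of Eif4e thus lie further apart than the 2 arrays do in any member. Eif4e2, a cap-binding protein that represses translation, was at 9.83 in Ad-caERα and 9.79 in Ad-DsRed (0.035). Eif4e3, a further paralog, was at 7.89 in Ad-caERα and 7.71 in Ad-DsRed (0.18). Eif4e1b, known as the oocyte form, was at 6.11 in Ad-caERα and 5.90 in Ad-DsRed (0.21).

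The helicase gene Eif4a1 was at 12.69 in Ad-caERα and 12.73 in Ad-DsRed, and its 3 probe sets ran from -0.079 to -0.032. Its paralog Eif4a2 was at 11.39 in Ad-caERα and 11.48 in Ad-DsRed (-0.089). Eif4a3, which encodes the helicase of the exon junction complex rather than of the cap, was at 8.87 in Ad-caERα and 8.77 in Ad-DsRed (0.098). Eif4a3l1, a close copy of Eif4a3, lay near the floor at 5.30 in Ad-caERα and 5.15 in Ad-DsRed, and 2 probe sets shared by both, assigned to neither, gave 0.15 each. Among the scaffolds, Eif4g2, which lacks the eIF4E-binding site, was at 12.07 in Ad-caERα and 12.17 in Ad-DsRed (-0.098), and Eif4g3 was at 9.88 in Ad-caERα and 9.97 in Ad-DsRed (-0.094). Eif4g1 was not analysed here. The helicase cofactors Eif4b and Eif4h differed by -0.018 and 0.075.

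The repressors of eIF4E went both ways, with a median of -0.050 over 3 genes. Eif4ebp1, the 4E-binding protein best known as an mTOR target, was at 10.16 in Ad-caERα against 9.99 in Ad-DsRed (0.16). Eif4ebp2 was at 10.78 in Ad-caERα and 10.83 in Ad-DsRed (-0.050). Eif4enif1, which carries eIF4E into the nucleus, was at 8.88 in Ad-caERα and 9.02 in Ad-DsRed (-0.13), and its dimmer second probe set gave -0.38. Both probe sets of Eif4enif1 were lower in Ad-caERα, by unequal amounts. A probe set shared by Ankhd1 and Eif4ebp3, assigned to neither, gave -0.26.

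**Figure D3:**
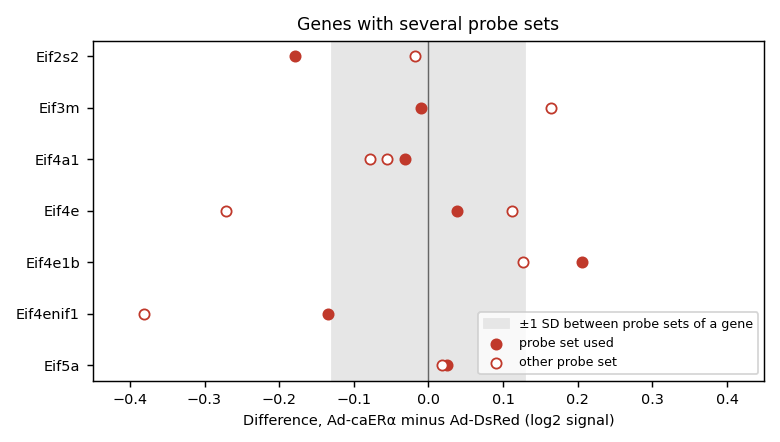
Differences (Ad-caERα minus Ad-DsRed, log2 signal, x axis) of all single-gene probe sets of the 7 initiation factor genes that have more than 1. Filled points are the probe sets used, open points the others and the grey band ±1 SD between probe sets (0.13); Eif4e and Eif3m have probe sets on both sides of 0, and the other 5 genes do not.

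Eif5 and Eif5b, which act at start-codon recognition and subunit joining, were below 0, and Eif5b had the lowest difference of all members. Eif5, which makes eIF2 hydrolyse its GTP at the start codon, was at 10.98 in Ad-caERα against 11.16 in Ad-DsRed (-0.18). Eif5b, the GTPase of subunit joining, was at 8.60 in Ad-caERα against 8.83 in Ad-DsRed (-0.22, or 1.17-fold lower). Both stood outside 1 SD between probe sets and short of the size rule. A probe set shared by Eif5 and the small nucleolar RNA gene Snora28, assigned to neither, gave 0.056.

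The scanning factors split by gene. Eif1b, a paralog of the scanning factor eIF1, was at 10.04 in Ad-caERα against 9.75 in Ad-DsRed (0.29), and Eif1ad, named for its eIF1A-like domain, at 9.24 in Ad-caERα against 9.02 in Ad-DsRed (0.21). Eif1ax, the X-linked eIF1A gene, was at 10.31 in Ad-caERα and 10.37 in Ad-DsRed (-0.056), and its copy Eif1a at 8.82 in Ad-caERα and 9.02 in Ad-DsRed (-0.20). Another 4 probe sets, shared by Eif1a and several predicted genes and assigned to none, ran from 0.010 to 0.032, so the -0.20 of Eif1a is not seen in them. Eif1 was not analysed here.

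Neither eIF5A nor eIF6 differed by as much as 0.1. Eif5a, the hypusine-bearing factor that helps ribosomes through difficult peptide bonds, was at 12.03 in Ad-caERα and 12.01 in Ad-DsRed, with 0.018 in its second probe set. Its paralog Eif5a2 was at 7.94 in Ad-caERα and 7.98 in Ad-DsRed. Eif6, which keeps the large subunit apart from the small one, was at 10.89 in Ad-caERα and 10.83 in Ad-DsRed.

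**Figure D4:**
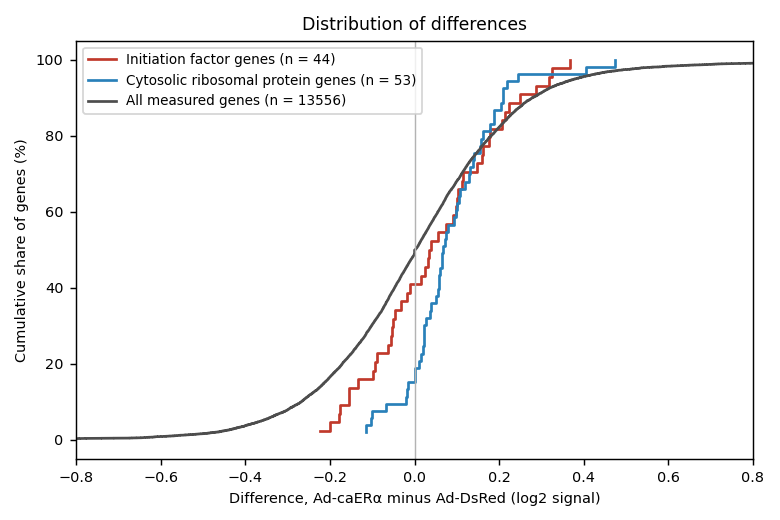
Cumulative share of genes (%, y axis) by difference, Ad-caERα minus Ad-DsRed (log2 signal, x axis, drawn without the outermost tails), for 44 initiation factor genes, 53 cytosolic ribosomal protein genes and all 13556 measured genes. The initiation factor curve spans -0.22 to 0.37, crosses its middle at 0.037 and is narrower than that of all measured genes, which were not matched for signal level.

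Genes that act on the initiation factors were read from lists of the same pathway. Of 11 measured genes for the eIF2 kinases and their response, 0 were higher by the size rule and 1 was lower, with a median of 0.067. Of all measured genes, 7.34% were higher by that rule and 6.76% lower, and lists this short cannot be set against these shares. The 1 lower gene was Eif2ak2, the double-stranded RNA-activated and interferon-induced kinase PKR, at 8.06 in Ad-caERα against 8.41 in Ad-DsRed (1.27-fold lower). The other kinases, Eif2ak1 (0.17), Eif2ak3 (0.000) and Eif2ak4 (-0.083), did not reach that size. Atf4, the transcription factor translated when eIF2 is phosphorylated, was at 8.90 in Ad-caERα and 8.71 in Ad-DsRed. Ppp1r15a, which directs the eIF2 phosphatase, was highest at 0.24.

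In the mTOR and MNK list, 1 of 17 measured genes was higher by the size rule and 1 lower, with a median of 0.087. These 2 counts are near the shares of all measured genes, 7.34% higher and 6.76% lower. Ddit4, an mTOR inhibitor induced by stress, was at 8.14 in Ad-caERα against 7.80 in Ad-DsRed (1.26-fold higher). Deptor, an inhibitory subunit of the mTOR complexes, was at 9.49 in Ad-caERα against 10.05 in Ad-DsRed (1.47-fold lower). These 2 mTOR inhibitors thus stood at opposite ends of the list. Pdcd4, which blocks eIF4A, differed by 0.27 and Mknk2, which phosphorylates eIF4E, by 0.20. Mtor itself was at 9.44 in Ad-caERα and 9.58 in Ad-DsRed.

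Of 14 measured poly(A)-binding and other helper genes, 1 passed the size rule and it was higher, as 7.34% of all measured genes were. Cyfip2, a subunit of the WAVE actin complex whose paralog CYFIP1 binds eIF4E, was at 8.13 in Ad-caERα against 6.70 in Ad-DsRed (2.69-fold), the largest difference in any list read here. The other 13 ran from -0.11 (Abce1, a ribosome recycling factor) to 0.12 (Bzw2), among them Pabpc1, the main poly(A)-binding protein, at 12.86 in Ad-caERα and 12.93 in Ad-DsRed. Both enzymes that make hypusine on eIF5A were just under the size rule. Dhps was at 7.93 in Ad-caERα against 7.62 in Ad-DsRed (0.31), and Dohh at 8.54 in Ad-caERα against 8.23 in Ad-DsRed (0.31), beside the 0.025 of Eif5a.

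Genes of the later steps of translation also differed little, and most lay above 0, beside 50.2% of all measured genes. Elongation factors had 0 of 8 genes past the size rule, 7 above 0 and a median of 0.054, from Eef1a1 (-0.018) to Eef1d (0.26). Termination and recycling factors had 0 of 5 past it, all 5 above 0 and a median of 0.052, from Etf1 (0.036) to Gspt2 (0.17). Cytosolic ribosomal proteins had a median of 0.066, with 43 of 53 above 0. By the size rule 2 were higher, Rpl14 (0.47) and Rpl34 (0.41), and 0 lower, beside 7.34% and 6.76% of all measured genes.

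Mitochondrial translation factors, which serve the separate mitochondrial ribosome, had a median of 0.19 over 9 genes. By the size rule 1 was higher on the values as deposited, beside 7.34% of all measured genes. This was Mtrf1, a termination factor at 5.13 in Ad-caERα against a signal below the floor in Ad-DsRed, which makes the fold at least 1.02. Mtif3, the mitochondrial initiation factor, was at 8.23 in Ad-caERα against 7.92 in Ad-DsRed (0.31), while Mtif2 differed by -0.027. Tufm, the mitochondrial elongation factor Tu, was at 9.64 in Ad-caERα against 9.33 in Ad-DsRed (0.31), and Mtrf1l was lowest at -0.14.

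**Figure D5:**
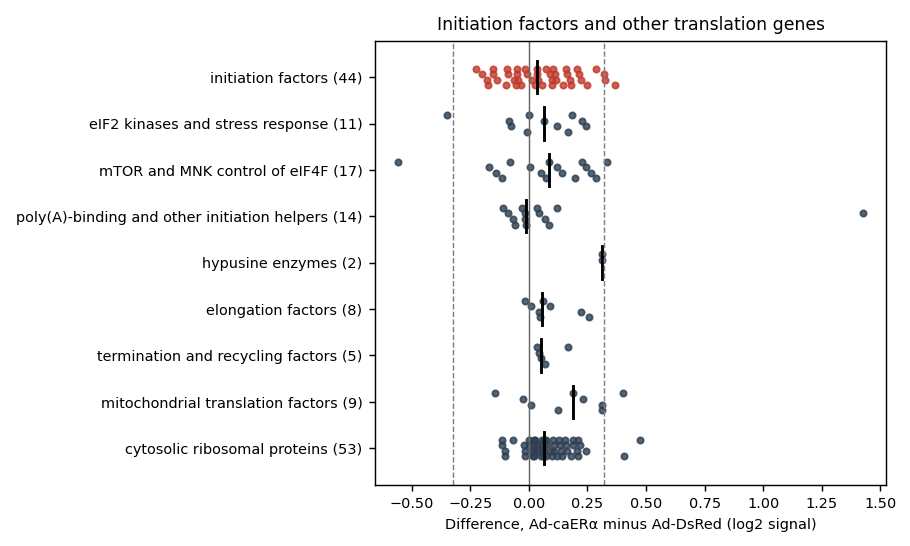
Differences (Ad-caERα minus Ad-DsRed, log2 signal, x axis) of the measured initiation factors and of 8 further translation lists, with the number of genes in brackets; points are genes, black bars medians and dashed lines the size rule of ±0.322. Cyfip2 is the single point far to the right, at 1.43 on the log2 scale.

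The labelled cell type was checked against markers. All 10 myotube markers were measured, with signals from 7.63 to 13.00 in Ad-caERα and from 8.42 to 12.92 in Ad-DsRed. Of these 8 were lower in Ad-caERα, beside 6612 of 13556 measured genes, and 2 were above 0, Des (0.22) and Myod1 (0.0036). Lower were the fusion genes Mymx (-0.79) and Mymk (-0.19) and the calcium pump Atp2a1 (-0.52). The embryonic myosin Myh3 (-0.25) and the regulator Myog (-0.18) were lower too. The other lower markers, Acta1 (-0.0049), Ckm (-0.050) and Tnnt3 (-0.089), lay within 1 SD between probe sets. The summed signal of the 10 myotube markers, which mixes probes of unlike brightness, was 14.90 in Ad-caERα and 14.94 in Ad-DsRed on the log2 scale. Of 5 macrophage, 5 endothelial, 5 adipocyte and 4 neuron markers, 2 of each passed the floor. The macrophage markers above it were Cd14, at 6.82 in Ad-caERα and 6.53 in Ad-DsRed, and Cd68, at 6.62 in Ad-caERα and 6.38 in Ad-DsRed, while Ptprc, Adgre1 and Csf1r were below it. The neuron markers Tubb3, at 9.08 on both arrays, and Syt1, at 8.15 in Ad-caERα and 8.10 in Ad-DsRed, passed and Rbfox3 and Snap25 did not. Tek and Vwf passed among endothelial markers and Cidec and Plin1 among adipocyte ones, all 4 lower in Ad-caERα. Cidec (5.26 in Ad-caERα, 5.58 in Ad-DsRed) and Plin1 (5.40 and 5.64) lay near the floor. Among endothelial markers that did not pass, Pecam1 (0.34) and Kdr (0.18) were higher in Ad-caERα and Cdh5 (-0.11) lower. Among adipocyte ones, Adipoq (0.044) was higher and Fabp4 (-0.021) and Lep (-0.34) lower. The part of these differences in the initiation factor values was not tested. In bulk RNA, fewer cells of a type and less RNA per cell cannot be told apart. Esr1, the mouse gene of estrogen receptor α, was at 8.44 in Ad-caERα and 7.38 in Ad-DsRed. Whether its probe set reads the introduced receptor is unknown, since the labels do not give that receptor's species.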

How the data were processed

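RNA of 2 differentiated C2C12 cultures, 1 per vector, was measured on Affymetrix arrays from 150 ng of total RNA. The authors deposited 1 log2 signal for each probe set and array, made with Affymetrix Expression Console and RMA, per the submitters' processing notes; no versions are named there. Differences between weak signals come out too small under RMA, and its quantile step hides changes in total mRNA.

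The platform's annotation table named 1 gene for 21789 of 35556 probe sets, and 21698 of these matched RefSeq (GRCm38.p6) by gene ID. Each gene was represented by its probe set of highest mean signal, and 54 probe sets gave the 45 members. The detection floor was the 95th percentile of the higher signal over 1212 olfactory and vomeronasal receptor probe sets. With 1 array per group, genes were counted by size, at a log2 difference of 0.322 and at 2-fold, and no p-value was computed. Where a signal lay below the floor, the fold is a lower bound. Every measured member could be named; paralogs and the ends of each complex were given with both signals, and from the pathway lists the genes past the smaller size or at the ends, with a few others chosen after their values were seen. Members, complexes and lists were chosen with earlier results of these data known. The size rules were run on simulated differences with added changes of known size, apart from the code that made the counts. Alternatives covered the floor, normalization, probe set rule, threshold and summary. The software was Python 3.11.15 with pandas 2.3.3, numpy 2.4.6, statsmodels 0.14.6 and matplotlib 3.10.9.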

Additional observations from a re-analysis of the deposited data

How the results depend on the processing

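The count of members higher by the size rule of 0.322 was 2 and became 1 (Eif2b4 alone) after quantile normalization of both arrays and likewise 1 after centring on a loess curve of level, 0 at 1.5-fold and 8 at a difference of 0.202, where 17.6% of measured genes pass, and 1.82% pass at 1.5-fold. Centring each array on its median gave 3, with Eif3i added. The count lower was 0 and became 1 with the dimmest probe set per gene (Eif4enif1) and 1 at a difference of 0.202, where 16.3% of measured genes pass. It stayed 0 at 1.5-fold, where 0.885% pass. In all 10 alternatives 0 members were 2-fold apart. The median over members, 0.037, was 0.066 with each array centred on its median, where that of all measured genes also went up, to 0.032. It was 0.017 after quantile normalization, 0.017 after loess centring and 0.066 with the dimmest probe set. The eIF4F median of 0.037 was 0.0085 with either higher floor and with the mean over probe sets. The eIF3 median of 0.10 was 0.051 after quantile normalization. The eIF2B median stayed between 0.22 and 0.28 and that of eIF5 and eIF5B between -0.23 and -0.17 over 11 alternatives each, while that of eIF5A ran from -0.046 to 0.018 and changed sign. Among 436 recalculations of single members, 3 moved by more than 1 SD between probe sets, all with the dimmest probe set: Eif2s2 at -0.019, Eif3m at 0.16 and Eif4enif1 at -0.38. The sign turned in 8, all of members whose differences were under 0.04 (Eif3c, Eif3m, Eif4b, Eif4e and Eif5a). Most members lie well above the floor and have 1 probe set, so the floor and probe set rules could hardly move them. The floor did move the background. With the floor at the 99th percentile of receptor probe sets, all measured genes had a median of 0.024 and 54.66% above 0. The members then had a median of 0.034, with 24 above 0 and 18 below. No paired analysis was possible because there is a single array for each vector, which also leaves no replicate to omit. Where a value moved, the cause was not tested.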
